A study of Homo sapiens with 9 samples.

Results

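Mitochondrial ribosomal protein genes are the nuclear genes for the protein subunits of the ribosome that works inside mitochondria. They were taken as every gene whose symbol starts with MRPL or MRPS followed by a digit, which gave 78 of the 16772 genes in the deposited table. The rule itself uses gene symbols and no measured value, although the set was chosen with earlier results of these data known. The filter on low values, FPKM (fragments per kilobase of transcript, scaled to library size) of 1 or more in 3 or more of the 9 libraries, kept 77 of the 78 and left out MRPS24. It kept 11525 genes in all.

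RNA was sequenced from wild-type DU145 cells, a line established from a human prostate carcinoma. Cells grew for 6 days with DMSO as the solvent alone, with the compound H93 at 20 µM, or with SAHA (vorinostat, an inhibitor of histone deacetylases) at 500 nM, and there were 3 libraries per group. Both compounds were dissolved in DMSO, so every group received the solvent, and the doses are written in the labels as "μm" and "nm". The series title describes H93 as targeting UHRF1, a protein that guides maintenance DNA methylation, and the comparisons with DMSO and with SAHA ask how expression differs after H93. Whether the 3 libraries of a group came from separate cultures is not stated, so the p-values measure only the spread between libraries, which may be technical.

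The mitochondrial ribosome has a small subunit, which binds the mRNA and decodes it, and a large subunit, which joins the amino acids. It translates the few mRNAs encoded by mitochondrial DNA, all for subunits of the respiratory chain and the ATP synthase. All of its proteins are made from nuclear genes in the cytosol and imported, and they assemble on RNAs transcribed in the mitochondrion. Some have homologs in bacterial ribosomes and others are found in mitochondrial ribosomes only. By current structures 51 of the kept genes encode large subunit proteins and 25 encode small subunit proteins. MRPS18A and MRPS30 are counted as large subunit proteins despite their symbols. By origin, MRPS18A and MRPS18B were counted as mitochondria-specific although they, like MRPS18C, are homologs of bacterial S18. MRPS18C was counted as a bacterial homolog. MRPS36, which is known as an adaptor of the 2-oxoglutarate dehydrogenase complex, was placed in neither subunit.

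The RefSeq promoters of 6 genes are shown so that the letters can be seen beside genes that fell and genes that rose. The falls are the 3 largest with H93, and the rises are genes called higher with both H93 and SAHA, chosen after their values were seen. MRPL52 and MRPL17, also called higher with both, are not printed. Each sequence runs from 150 bases before the RefSeq transcription start to 30 bases from it, 5′ to 3′ on the gene's strand, in GRCh38.p14. Capitals mark letters that match CCGGAAG, the core bound by ETS factors such as GABPA, or AANATGGC, the core bound by YY1, on either strand. MRPS26, MRPS7 and MRPS27, which fell most with H93, come first, followed by MRPL33, MRPS31 and MRPS10, which rose. The regions are chr20:3045902-3046081 on the plus strand for MRPS26, chr17:75261729-75261908 on the plus strand for MRPS7, and chr5:72320211-72320390 on the minus strand for MRPS27. They are chr2:27771569-27771748 on the plus strand for MRPL33, chr13:40771161-40771340 on the minus strand for MRPS31, and chr6:42217832-42218011 on the minus strand for MRPS10.
MRPS26: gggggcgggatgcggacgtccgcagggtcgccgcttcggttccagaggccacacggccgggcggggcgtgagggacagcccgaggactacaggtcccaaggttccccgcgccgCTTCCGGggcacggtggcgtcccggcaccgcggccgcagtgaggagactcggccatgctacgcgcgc
MRPS7: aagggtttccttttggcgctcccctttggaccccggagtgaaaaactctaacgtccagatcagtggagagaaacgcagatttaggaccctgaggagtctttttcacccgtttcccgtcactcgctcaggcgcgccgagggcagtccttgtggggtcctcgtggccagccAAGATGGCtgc
MRPS27: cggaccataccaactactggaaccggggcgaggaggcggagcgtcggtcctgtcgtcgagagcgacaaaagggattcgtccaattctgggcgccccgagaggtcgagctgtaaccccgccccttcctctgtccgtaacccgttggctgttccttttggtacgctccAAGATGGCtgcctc
MRPL33: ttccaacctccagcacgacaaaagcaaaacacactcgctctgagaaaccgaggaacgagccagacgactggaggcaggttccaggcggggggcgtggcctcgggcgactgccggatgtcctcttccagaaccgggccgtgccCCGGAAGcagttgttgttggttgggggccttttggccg
MRPS31: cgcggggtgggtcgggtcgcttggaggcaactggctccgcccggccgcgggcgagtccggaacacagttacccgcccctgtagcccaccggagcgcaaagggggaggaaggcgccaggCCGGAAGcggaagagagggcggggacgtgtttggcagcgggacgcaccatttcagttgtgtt
MRPS10: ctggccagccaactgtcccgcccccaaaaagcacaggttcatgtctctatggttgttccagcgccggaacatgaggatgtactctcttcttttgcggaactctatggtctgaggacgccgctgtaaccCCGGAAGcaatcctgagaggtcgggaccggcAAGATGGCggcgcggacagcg

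MRPS7 and MRPS27 carried the YY1 letters just after the RefSeq start, and MRPS26, MRPL33 and MRPS31 carried the ETS letters just before it. MRPS10 carried both. GENCODE places the starts further upstream for MRPS26 (3045945), MRPS7 (75261674) and MRPS27 (72320646). By those starts the printed regions of MRPS7 and MRPS27 lie wholly inside the genes, and the ETS letters of MRPS26 lie after its start. For MRPS26, MRPS7 and MRPS27 the placement just before or just after the start therefore holds for RefSeq only. RefSeq promoters from 250 bases before to 50 bases after the start were matched for 69 of the 78 genes, and 4 motifs were searched on both strands. Of the 69 genes 11 had more than 1 promoter, and a gene was counted where any of its promoters matched. CCGGAAG was present for 30 of the 69 genes (43.5%), against 23.6% of the 9391 kept genes with a promoter. AANATGGC was present in 26 (37.7%) against 13.1%. These letters hold ATG, and all printed matches lie after the RefSeq start. A match there may include the start codon of translation, which was not examined. The core of the NRF1 site, GCGCA followed by any base and GCGC, was present in 9 (13.04%) against 13.8%, and the E-box CACGTG in 9 (13.04%) against 12.7%. By the H93 comparison, CCGGAAG was present for 13 of 35 genes that fell, 7 of 9 genes that rose and 10 of 24 genes not called. AANATGGC was present for 14 of 35, 3 of 9 and 8 of 24. These are matches of letters, given as a description with no test.

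The libraries held between 14910 and 15295 genes above 0, and their relative depth, read from the steps between low values, was between 0.876 and 1. Absolute read depth is unknown. Pearson correlations of log2(FPKM + 1) over all 16772 genes, before the filter, were 0.99856 to 0.99894 between replicates and 0.98691 to 0.99759 between groups. Among 5 epithelial markers, the keratins KRT8 and KRT18 were at 664 to 737 and 653 to 714 FPKM over the 9 libraries. The means of the other 3 differed between groups. KRT19 had means of 169 with DMSO, 420.4 with H93 and 326 with SAHA, EPCAM of 67.1, 30.4 and 37.8, and CDH1 of 13.3, 4.34 and 5.09. The leukocyte gene PTPRC stayed at or under 0.0179 and the endothelial gene PECAM1 at or under 0.0377 in every library. The fibroblast gene COL1A1 ranged from 2.04 to 3.58, with means of 2.24, 3.20 and 3.25. The part of such shifts in the results below was not tested.

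With DMSO the 77 genes spanned mean levels from 1.51 to 142 FPKM with a median of 38.1, against a median of 10.1 over all kept genes. A mean of at least 10 FPKM over the 9 libraries was reached by 73 of the 77 (94.8%) and by 5763 of the 11525 kept genes. Large subunit genes had a DMSO median of 39.0 and small subunit genes one of 27.9. By the mean over all 9 libraries the most abundant were MRPL33, MRPL12, MRPL41 and MRPL51, and with DMSO alone MRPS34, at 107 ± 4.40 FPKM, stood above MRPL41 and MRPL51. MRPL12, whose protein forms the flexible stalk that recruits translation factors, stood at 142 ± 3.70 FPKM with DMSO (SD, n = 3, as for all values written with ±). MRPL41 stood at 104 ± 4.76 and MRPL51 at 96.2 ± 0.826. At the low end were MRPL42 at 6.61 ± 0.314, MRPS33 at 5.66 ± 0.204, MRPS28 at 5.04 ± 0.557 and MRPL23 at 1.51 ± 0.128. With DMSO the libraries of MRPL12 and MRPL33 did not overlap, nor did those of MRPL41 and MRPL51. Those of MRPS34 and MRPL41 did overlap, as did those of MRPS33 and MRPS28. MRPS24, which the filter left out, read 0, 0.260 and 0.234 FPKM with DMSO, 0.250, 0 and 0.0831 with H93 and 0.0824, 0.178 and 0.165 with SAHA. In GENCODE release 29 (GRCh38) it lies on chromosome 7 from 43866558 to 43869893, inside a read-through gene with URGCP on the same strand, and how the authors' counting divided reads between such genes is not given in the sources used here.

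The order of levels was close to the same in the 3 groups, with Spearman correlations across the 77 genes of 0.980 for DMSO and H93, 0.988 for DMSO and SAHA and 0.995 for H93 and SAHA. These are correlations across genes, which are not independent replicates. The median coefficient of variation between replicates was 3.45% with DMSO, 3.48% with H93 and 3.76% with SAHA, against 3.53%, 3.69% and 4.03% over all kept genes.

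**Figure D1:**
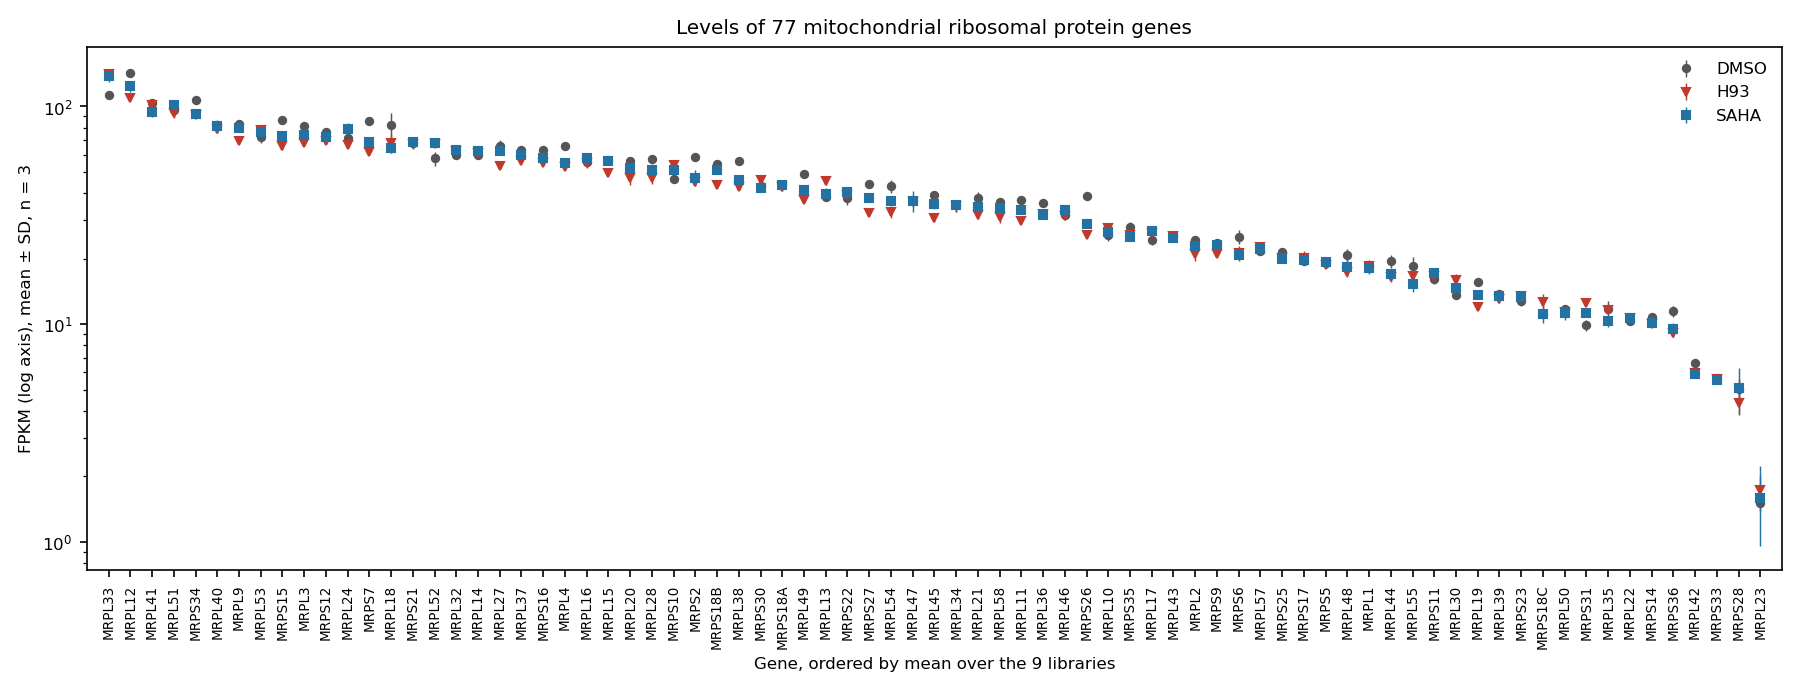
Mean FPKM (log axis) with SD over 3 libraries for each of the 77 kept genes, ordered by the mean over all 9 libraries, with circles for DMSO, triangles for H93 and squares for SAHA. The 3 groups lie close together at every level, from MRPL33 and MRPL12 above 100 FPKM down to MRPL23, and DMSO is the highest of the 3 for many genes of the upper range.

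In H93-treated cells more mitochondrial ribosomal protein genes were lower than higher. By limma on log2(FPKM + 1), with Benjamini-Hochberg adjustment over all kept genes and a call at an adjusted p under 0.05, 39 of 77 fell, 10 rose and 28 were not called. The shares were 50.6% lower and 12.99% higher, against 35.0% lower and 34.9% higher among all 11525 genes. The median difference was −0.12 on the log2(FPKM + 1) scale against 0.00 for all genes. No gene reached a 2-fold difference, which 2.28% of all genes did, and the range ran from −0.57 to 0.32. In bulk RNA of this kind fewer cells expressing a gene and less RNA per cell cannot be told apart. Since 69.8% of all genes were called in one direction or the other, the split between directions, more than the number called, sets these genes beside the rest. Among the 5170 genes with a mean of 10 to 100 FPKM, a comparison set chosen after the data were seen, 39.2% were lower and 36.4% higher.

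Summed over the 78 genes, the FPKM was 3361 ± 23.1 with DMSO, 3066 ± 5.35 with H93 and 3198 ± 44.3 with SAHA. As a share of all FPKM this was 0.960 ± 0.00310%, 0.878 ± 0.00110% and 0.906 ± 0.00685%. The sum weights abundant genes, and the genes that fell with H93 had a DMSO median of 49.2 FPKM, those that rose 40.9 and those not called 23.5.

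Among small subunit proteins, MRPS26, a protein specific to mitochondria encoded on chromosome 20 from 3045945 to 3048254, had the largest fall with H93. It read 39.2, 37.4 and 39.6 FPKM with DMSO, 25.8, 26.3 and 24.97 with H93 and 29.9, 27.5 and 29.6 with SAHA. The 3 groups did not overlap, with DMSO highest and H93 lowest. The difference between H93 and DMSO was −0.57 ± 0.04 (SE) with a limma adjusted p (Benjamini-Hochberg) of 3.2e-08, and the mean FPKM fell by 33.7%. MRPS7, a homolog of the bacterial protein S7 in the head of the subunit, is encoded on chromosome 17 from 75261674 to 75266373. It read 85.0, 87.0 and 85.2 with DMSO, 63.0, 61.5 and 61.4 with H93 and 66.1, 68.4 and 71.6 with SAHA. Here too the groups kept apart in the same order, and the H93 difference was −0.46 ± 0.03 (SE, limma adjusted p = 2.7e-08). MRPS27, a pentatricopeptide repeat protein specific to mitochondria, is encoded on chromosome 5 from 72219409 to 72320646. Its values were 43.7, 43.7 and 44.9 with DMSO, 31.2, 33.1 and 32.6 with H93 and 37.8, 38.7 and 37.4 with SAHA, again without overlap. Its H93 difference was −0.44 ± 0.03 (SE, limma adjusted p = 4.5e-08).

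MRPS15, a homolog of a bacterial protein that binds the small ribosomal RNA, fell from 86.6 ± 0.788 to 66.1 ± 2.96 FPKM with H93. MRPS2 fell from 58.8 ± 1.38 to 44.8 ± 1.40 and MRPS18B, one of 3 homologs of bacterial S18, from 54.6 ± 1.58 to 43.8 ± 1.22. The fall of MRPS34 from 107 ± 4.40 to 91.9 ± 3.62 and that of MRPS12, a protein of the decoding site, from 76.6 ± 1.08 to 69.7 ± 2.71 were smaller. In all, 14 of 25 small subunit genes fell (56%) and 3 rose (12%), against 35.0% and 34.9% of all kept genes. The median difference of the small subunit genes was −0.12. The 3 small subunit genes that rose were MRPS31, MRPS10 and MRPS18C. MRPS31, on chromosome 13 from 40729135 to 40771173, had the largest rise of any member. It read 9.39, 9.75 and 10.5 with DMSO, 12.6, 12.4 and 12.7 with H93 and 11.3, 11.6 and 10.8 with SAHA, with all H93 libraries highest and all DMSO libraries lowest. The H93 difference was 0.32 ± 0.04 (SE, limma adjusted p = 2.0e-05). MRPS10, a homolog of bacterial S10 on chromosome 6 from 42206801 to 42217865, rose from 46.4 ± 0.903 to 53.7 ± 1.72. The rise of MRPS18C from 11.1 ± 0.144 to 12.7 ± 1.14 was not called without any 1 of 5 libraries (DMSO 1, 2 and 3, H93 1 and 2), with limma adjusted p-values up to 0.145 over the alternatives. It was also not called when low values were left unfiltered. MRPS36, outside both subunits, fell from 11.5 ± 0.719 to 9.15 ± 0.380.

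Among large subunit proteins, 24 of 51 fell with H93 (47.1%) and 7 rose (13.7%), against 35.0% and 34.9% of all kept genes. The median difference of the large subunit genes was −0.06. MRPL12 read 140.9, 146.4 and 139.4 FPKM with DMSO, 106.3, 107.8 and 113.0 with H93 and 122.3, 118.2 and 131.7 with SAHA. It lies on chromosome 17 from 81703357 to 81707526. The groups did not overlap, and H93 was lowest, with a difference of −0.38 ± 0.04 (SE, limma adjusted p = 1.9e-06). MRPL11, which forms the base of the same stalk, fell from 37.0 ± 1.17 to 29.7 ± 0.619. MRPL38, a mitochondria-specific protein of the central protuberance, fell from 56.3 ± 2.34 to 42.6 ± 1.38 and MRPL49, also specific to mitochondria, from 49.2 ± 1.52 to 37.0 ± 1.10. MRPL45, which lies at the exit of the nascent chain and helps to attach the ribosome to the inner membrane, fell from 39.0 ± 1.60 to 30.7 ± 1.15. MRPL37 fell from 63.1 ± 0.899 to 56.2 ± 1.33 and MRPL58, which also acts as a peptidyl-tRNA hydrolase, from 36.5 ± 1.25 to 31.0 ± 1.82.

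MRPL33, a small homolog of bacterial L33 and the most abundant member over the 9 libraries, rose instead. It read 118.0, 112.3 and 109.2 with DMSO, 140.4, 137.2 and 144.7 with H93 and 130.6, 145.6 and 136.8 with SAHA. Both compounds lay above DMSO without overlap, and the H93 and SAHA libraries overlapped. The H93 difference was 0.31 ± 0.04 (SE, limma adjusted p = 1.5e-05). In GENCODE MRPL33 spans chromosome 2 from 27771717 to 27988087 and overlaps BABAM2 on the same strand and RBKS on the other. MRPL13 rose from 38.5 ± 1.05 to 45.7 ± 2.03, MRPL30 from 13.6 ± 0.145 to 16.0 ± 1.02 and MRPL52 from 57.7 ± 4.36 to 67.1 ± 1.06. MRPL41, which was abundant, and MRPS18A, the S18 homolog of the large subunit, were not called, at 104 ± 4.76 against 102 ± 2.06 and 43.7 ± 1.82 against 42.5 ± 1.48 FPKM.

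By origin, 23 of 44 genes with bacterial homologs fell with H93 (52.3%) and 6 rose (13.6%), with a median difference of −0.13. Of 32 mitochondria-specific genes 15 fell (46.9%) and 4 rose (12.5%), with a median difference of −0.07. Among all kept genes 35.0% fell and 34.9% rose. The groups did not overlap for 47 of the 77 genes, 39 of them lower with H93, against 73.2% of all genes without overlap and 36.8% lower without overlap. Over 19 alternative settings 33 of the 39 falls and 6 of the 10 rises were called every time. The 6 rises were those of MRPL33, MRPS31, MRPL13, MRPL30, MRPL52 and MRPS10. Without H93 library 1 the number of rises was 6. The calls of MRPL53, MRPL17, MRPS18C and MRPS30 were lost there, and over the alternatives their limma adjusted p-values went up to 0.218, 0.125, 0.145 and 0.0787. MRPL53, at a limma adjusted p of 0.04996 in the main fit, lost its call in 13 of the 19 alternatives.

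**Figure D2:**
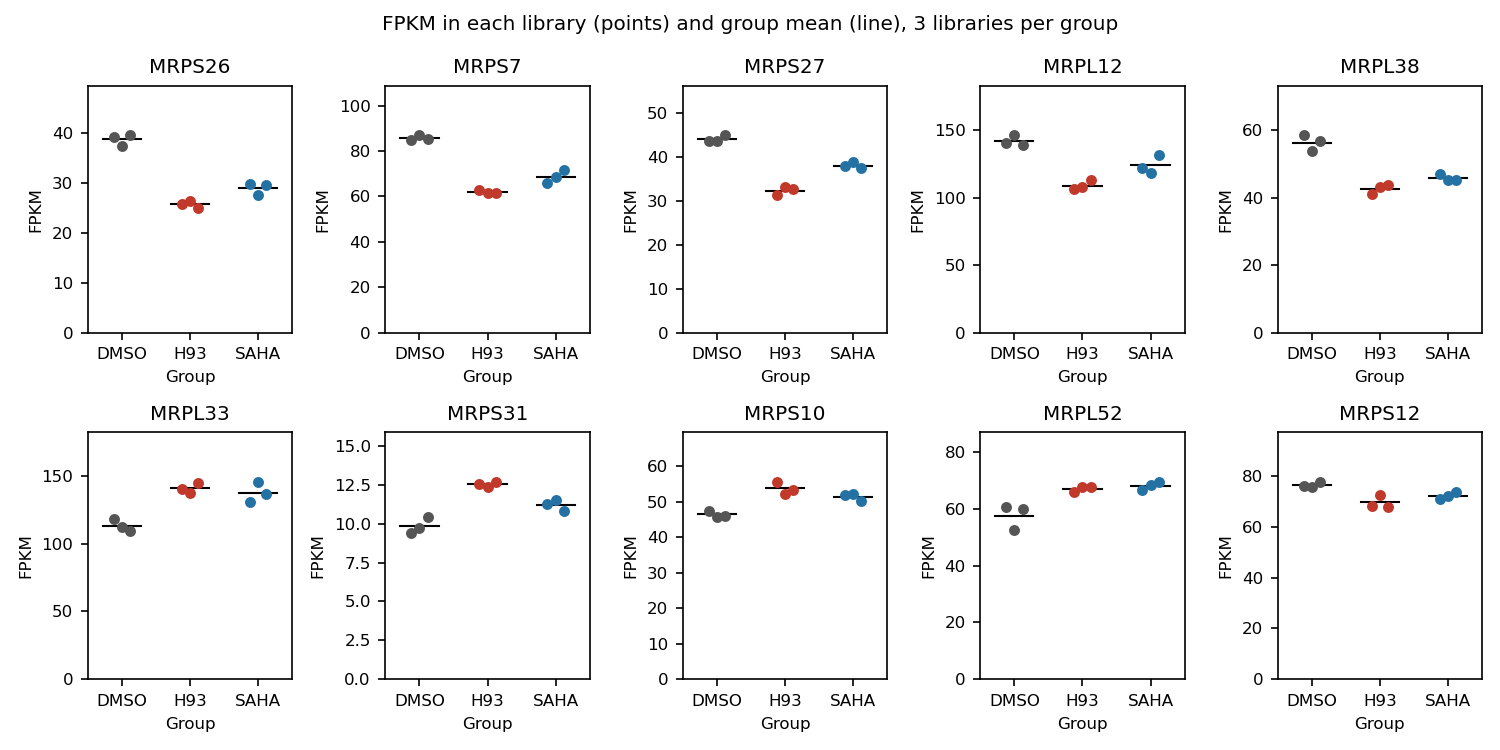
FPKM in each library (points) and group means (lines) for 10 genes, with axes starting at 0. For MRPS26, MRPS7, MRPS27, MRPL12 and MRPL38 every treated library lies below every DMSO library, for MRPL33, MRPS31, MRPS10 and MRPL52 every treated library lies above, and MRPS12 lies below DMSO by less.

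With SAHA, too, more of the genes were lower than higher. By limma 34 of 77 genes fell and 7 rose with SAHA, or 44.2% and 9.09%, against 31.4% lower and 27.4% higher among all genes. The median difference was −0.07 against −0.01 for all genes, and the range ran from −0.41 to 0.28, with no gene at 2-fold, against 1.12% of all genes. The H93 and SAHA comparisons share the DMSO libraries, so their values are set side by side here and not counted as separate evidence. The groups did not overlap for 38 genes, 29 of them lower, against 64.1% and 34.4% of all genes.

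MRPS26 again had the largest fall, at −0.41 ± 0.04 (SE, limma adjusted p = 1.4e-06), where H93 gave −0.57. For MRPS7 the SAHA difference was −0.32 against −0.46, for MRPL38 −0.29 against −0.39 and for MRPL12 −0.20 against −0.38. MRPS2 read 50.7, 43.2 and 47.5 FPKM with SAHA, below each of its DMSO values of 59.2, 59.9 and 57.2, and overlapped its H93 values of 46.4, 43.7 and 44.2. MRPS6 fell from 25.2 ± 1.88 to 20.8 ± 1.17 with SAHA. MRPL18, a homolog of bacterial L18, had a wide spread between DMSO libraries. It read 94.7, 79.6 and 71.2 with DMSO, 60.1, 70.6 and 73.3 with H93 and 67.8, 61.7 and 63.3 with SAHA. The SAHA libraries lay below all DMSO libraries, at a difference of −0.34 ± 0.09 (SE, limma adjusted p = 0.0065), while the H93 libraries overlapped DMSO. Its H93 call was lost without DMSO library 1 or H93 library 1, with no filter on low values and with robust moderation. Its limma adjusted p-values for H93 went up to 0.103 over the alternatives.

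On the other side, MRPL33 rose by 0.28 with SAHA and by 0.31 with H93, and MRPL52 by 0.24 and 0.22. MRPS31 rose by 0.17 and 0.32, and MRPS10 by 0.14 and 0.21. MRPL17 rose from 24.3 ± 1.16 to 26.8 ± 0.385 FPKM with SAHA. MRPL13 and MRPL30, which rose with H93, were not called with SAHA, at 39.6 ± 2.70 and 14.6 ± 0.431 FPKM. MRPL24 read 76.4, 68.3 and 71.4 with DMSO, 65.2, 65.7 and 67.9 with H93 and 73.7, 83.6 and 79.1 with SAHA. It was called lower with H93 and higher with SAHA, and its SAHA and DMSO libraries overlapped. The H93 call was lost without DMSO library 1 or 3 or H93 library 1 or 2 (limma adjusted p up to 0.174), and the SAHA call without DMSO library 2 or 3 or SAHA library 2 or 3 (up to 0.132). Both MRPL24 calls were also lost with no filter on low values and with replicate numbers as a block. MRPL32, the seventh gene called higher with SAHA, stood at 59.6 ± 0.777 with DMSO and 63.4 ± 2.11 with SAHA. Its call was lost without DMSO library 1 or 2 or SAHA library 1 or 3, and after scaling every library to the same FPKM sum.

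By subunit 21 of 51 large subunit genes and 12 of 25 small subunit genes fell with SAHA, and 5 and 2 rose. By origin it was 17 of 44 genes with bacterial homologs and 16 of 32 mitochondria-specific genes that fell, with 5 and 2 that rose. The falls were 41.2% and 48% by subunit, and 38.6% and 50% by origin. Among all kept genes 31.4% fell and 27.4% rose with SAHA, and among genes of 10 to 100 FPKM 36.0% and 29.1%. The 38.6% of genes with bacterial homologs that fell lies close to the shares of falls. The 11.4% of them that rose lies below the shares of rises. Over the 19 alternatives 23 of the 34 falls and 5 of the 7 rises were called every time. Without SAHA library 1 the number of falls was 25 and the median was −0.05.

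**Figure D3:**
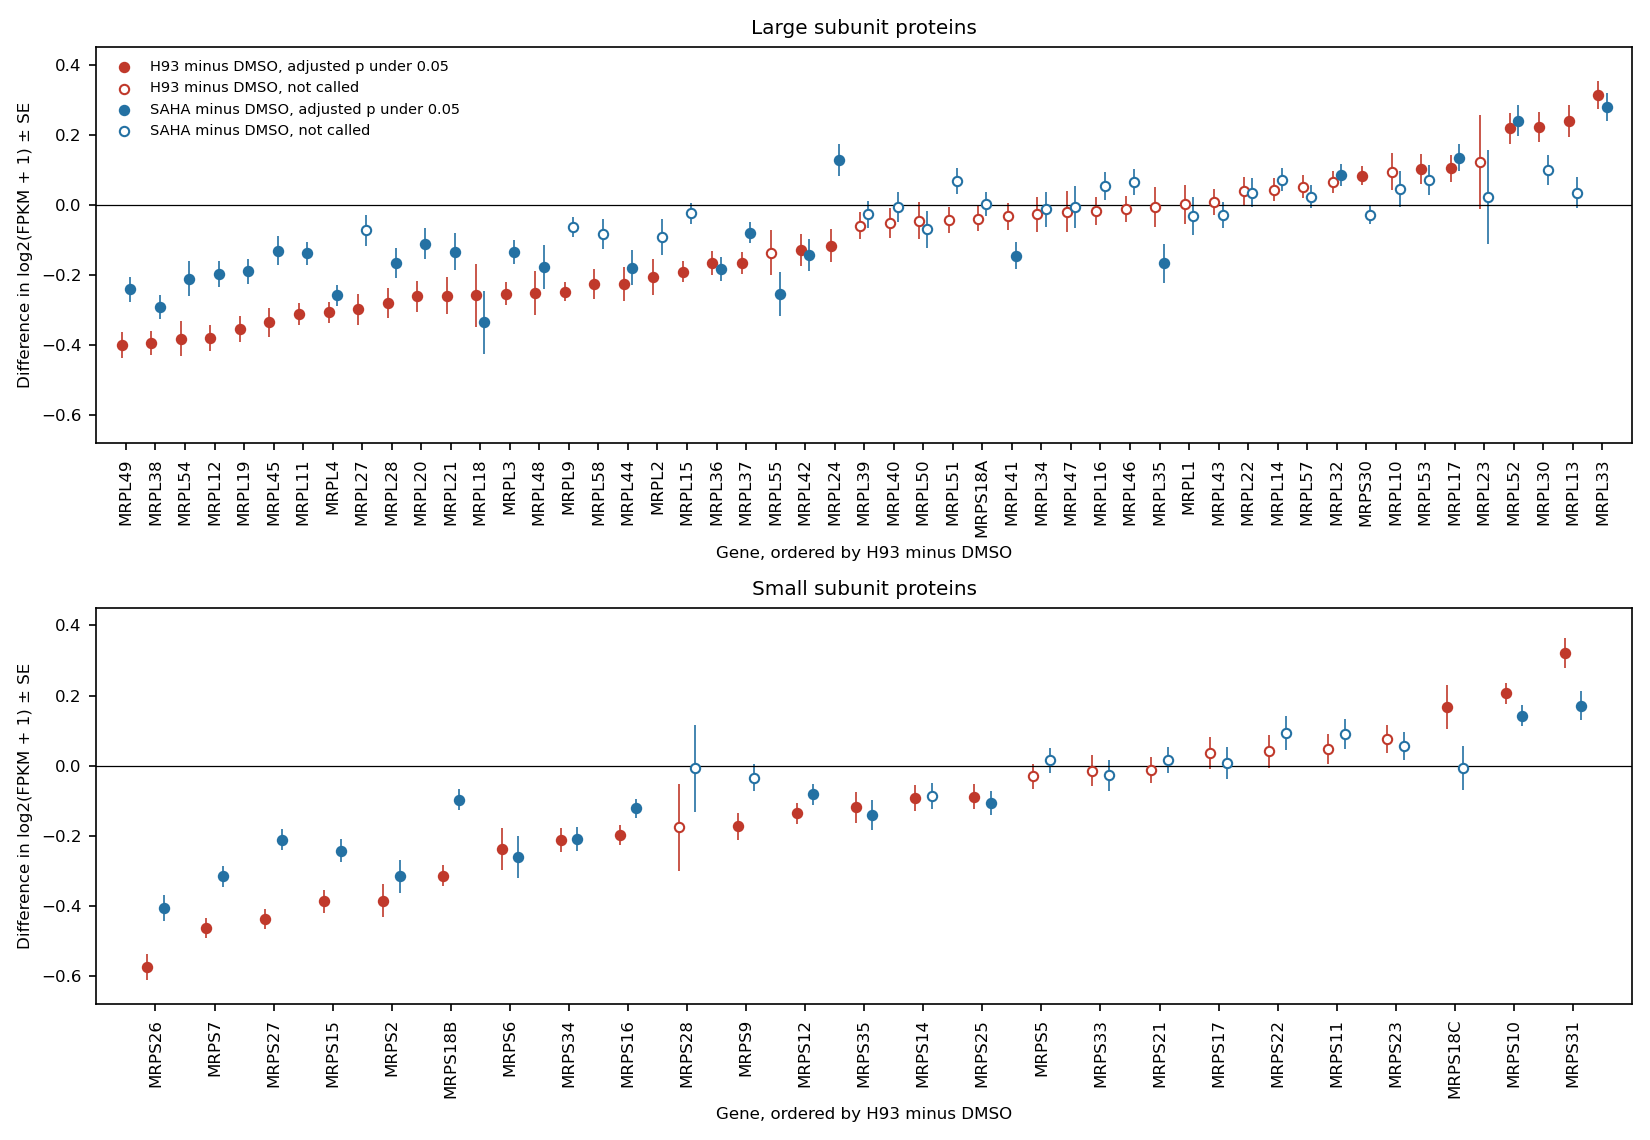
Difference in log2(FPKM + 1) from DMSO with its SE for the 51 large subunit genes (upper panel) and 25 small subunit genes (lower panel), ordered by the H93 difference, with H93 in red, SAHA in blue, filled points called at a limma adjusted p under 0.05 and open points not called. In both panels more points lie below 0 than above, MRPS26 lies lowest at −0.57 with H93, and MRPL33 and MRPS31 lie highest.

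The direct comparison asked which genes separated H93 from SAHA. By limma 21 of 77 genes were lower with H93 than with SAHA and 6 were higher, or 27.3% and 7.79%, against 13.9% lower and 17.6% higher among all genes. The median difference was −0.04 against 0.02 for all genes, within a range of −0.24 to 0.20. The split depended on scaling: it was 24 lower and 3 higher after median-ratio rescaling and 22 lower and 3 higher after quantile normalization. No gene was at 2-fold, against 0.0174% of all genes. The groups did not overlap for 28 genes, 22 of them lower with H93, against 44.4% and 18.8% of all genes.

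MRPL24 had the largest difference between the compounds, at −0.24 ± 0.05 (SE, limma adjusted p = 0.0023), and every H93 library lay below every SAHA library. MRPS27 followed at −0.23 ± 0.03 (SE, limma adjusted p = 0.00021), with its SAHA libraries between those of H93 and DMSO. MRPL27, homolog of a bacterial protein near the site of peptide bond formation, read 52.0, 55.1 and 53.1 FPKM with H93, 60.2, 63.6 and 64.0 with SAHA and 69.2, 60.8 and 67.8 with DMSO. Its H93 libraries lay below all the others, and its SAHA and DMSO libraries overlapped. MRPS18B was at 43.8 ± 1.22 with H93 and 51.0 ± 0.966 with SAHA, MRPL45 at 30.7 ± 1.15 and 35.6 ± 1.66, and MRPL9 at 69.7 ± 1.38 and 79.3 ± 0.0571.

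Of the 6 genes higher with H93 than with SAHA, MRPL13 and MRPS30 were called in all 19 alternatives. MRPL13 read 48.0, 44.5 and 44.5 FPKM with H93, 37.3, 42.5 and 38.9 with SAHA and 38.2, 39.7 and 37.7 with DMSO, so that the H93 libraries stood above both other groups. MRPS30 stood at 45.7 ± 0.335 with H93 and 42.3 ± 1.08 with SAHA. MRPS31 stood at 12.6 ± 0.165 and 11.2 ± 0.370, and its call was lost without H93 library 3 or SAHA library 3 (limma adjusted p up to 0.065). The differences of MRPL35, MRPL30 and MRPL41, between 0.11 and 0.16, had limma adjusted p-values of 0.047, 0.047 and 0.042 and went up to 0.141, 0.179 and 0.147 over the alternatives. The MRPL30 call was lost without any 1 library other than H93 3, the MRPL41 call without any 1 other than DMSO 1, DMSO 2 and SAHA 1, and the MRPL35 call without any H93 library, SAHA 1 or SAHA 2. Of the 21 genes lower with H93, 14 were called in every alternative. For MRPL33 and MRPL52, which were higher with both compounds than with DMSO, the difference between compounds was 0.03 ± 0.04 and −0.02 ± 0.04 (SE) and was not called.

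The SAHA mean lay between those of DMSO and H93 for 48 of the 77 genes (62.3%) and for 66.2% of all kept genes. It lay between with DMSO highest for 36 of the 77 (46.8%) and for 32.2% of all kept genes.

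Other parts of mitochondrial protein synthesis were examined through lists chosen with earlier results of these data known. The counts below stand against 35.0% of all kept genes lower and 34.9% higher with H93, and 31.4% lower and 27.4% higher with SAHA. For the 5 mitoribosome proteins without an MRPL or MRPS symbol, PTCD3 and CHCHD1 fell with H93, PTCD3, CHCHD1 and AURKAIP1 fell with SAHA, and DAP3 rose with SAHA. The H93 call of CHCHD1 was lost without H93 library 1 (limma adjusted p = 0.0521). The SAHA calls were lost without DMSO library 2 or 3 for AURKAIP1, without DMSO library 2 or 3 or SAHA library 1 or 3 for CHCHD1, and without DMSO library 3 or SAHA library 2 or 3 for DAP3, with limma adjusted p-values up to 0.0759, 0.0884 and 0.0948. PTCD3, a pentatricopeptide repeat protein of the small subunit, fell from 13.95 ± 0.597 FPKM to 11.2 ± 0.496 with H93 and 11.1 ± 0.174 with SAHA. Genes for assembly of the mitoribosome and modification of its RNA showed 15 of 25 falls and 3 rises (NGRN, GTPBP10 and TRMT2B) with H93, with a median of −0.19, and 13 falls and 1 rise (NGRN) with SAHA, with a median of −0.14. RCC1L, a factor in the assembly of the large subunit, fell from 37.7 ± 0.715 to 22.4 ± 0.494 with H93 and 27.1 ± 0.159 with SAHA. Its H93 difference of −0.72 (limma adjusted p = 3.8e-10) exceeded in size that of any MRPL or MRPS gene. RPUSD4, a pseudouridine synthase of the mitochondrial large ribosomal RNA, fell from 14.7 ± 1.02 to 9.56 ± 0.760 and 11.8 ± 0.334. MRM1, a ribose methyltransferase, fell from 5.74 ± 0.234 to 3.61 ± 0.259 and 4.61 ± 0.189, and YBEY, an endoribonuclease of small subunit maturation, from 4.55 ± 0.192 to 2.74 ± 0.0948 and 3.23 ± 0.166. NGRN, which works with RPUSD4 and RCC1L, rose from 176 ± 3.86 to 203 ± 4.21 and 202 ± 4.03. The TRMT2B call was lost without DMSO library 1 or 2 or H93 library 2 (limma adjusted p up to 0.147). It was also lost with no filter on low values and after quantile normalization. Among the falls with H93, the calls of NOA1, MTERF3 and DDX28 were lost in some alternatives (limma adjusted p up to 0.139, 0.0686 and 0.0557).

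Of 12 mitochondrial translation factors, 6 fell and 1 rose with H93, and 4 fell (MTIF2, MTIF3, TUFM and GFM1) and 1 rose with SAHA. The falls were 50% and 33.3% of the list, the latter close to the 31.4% of all kept genes. Rises were 8.33% of the list with each compound, against 34.9% of all kept genes with H93 and 27.4% with SAHA. MTRF1L, a release factor that ends translation at stop codons, was the one that rose in both comparisons. It stood at 7.40 ± 0.434 FPKM with DMSO, 12.7 ± 0.350 with H93 and 10.2 ± 0.493 with SAHA, and the H93 difference was 0.71 (limma adjusted p = 4.5e-08). The SAHA call of MTIF3 was lost without DMSO library 1 or 2 or SAHA library 2 or 3 (limma adjusted p up to 0.16). TACO1, which fell with H93, lost that call in some alternatives (limma adjusted p up to 0.166). The initiation factor MTIF2 fell from 10.3 ± 0.469 to 7.31 ± 0.0979 with H93 and 8.60 ± 0.604 with SAHA, and the elongation factor TUFM from 156 ± 1.36 to 143 ± 2.14 and 146 ± 5.59. Of 17 mitochondrial aminoacyl-tRNA synthetases, which charge the tRNAs, 11 fell and 1 rose with H93, and 9 fell and 1 rose with SAHA. The H93 falls of WARS2 and YARS2 were not called in some alternatives (limma adjusted p up to 0.183 and 0.0866). SARS2 fell from 17.8 ± 0.508 to 12.004 ± 0.833 and 14.6 ± 1.21, LARS2 from 10.2 ± 0.0626 to 6.90 ± 0.358 and 7.78 ± 0.137, and IARS2 from 64.8 ± 0.631 to 45.8 ± 1.41 and 51.7 ± 2.06. MARS2 was the one that rose with H93, from 5.59 ± 0.639 to 7.68 ± 0.0586, and VARS2 the one that rose with SAHA, from 25.1 ± 0.535 to 28.7 ± 0.639. SARS2 and MRPS12 overlap on opposite strands in GENCODE.

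Of 22 genes of mitochondrial DNA transcription, replication and RNA processing, 12 fell and 3 rose (POLG2, TRMT10C and FASTKD5) with H93, and 12 fell and 0 rose with SAHA. The calls of TRMT10C and FASTKD5 were lost without DMSO library 2 or 3 or H93 library 3, among others (limma adjusted p up to 0.0606 and 0.139). The H93 falls of POLG and SSBP1 were also not called in some alternatives (limma adjusted p up to 0.093 and 0.0859). LRPPRC, which stabilises mitochondrial mRNAs, fell from 74.1 ± 0.819 to 58.9 ± 1.46 with H93 and 60.7 ± 1.93 with SAHA, and the helicase gene TWNK from 17.8 ± 0.885 to 13.2 ± 0.647 and 13.5 ± 0.323. Of 12 genes that insert, fold or degrade the new chains, 9 fell with H93 and 8 with SAHA, and YME1L1 rose with both. The YME1L1 calls were lost without DMSO library 2, among others (limma adjusted p up to 0.0785 and 0.0685). The chaperonin HSPD1 fell from 287 ± 3.08 to 209 ± 8.85 and 226 ± 9.32, the chaperone HSPA9 from 113 ± 1.52 to 83.1 ± 1.202 and 88.8 ± 1.29, and TRAP1, a mitochondrial member of the Hsp90 family, from 80.9 ± 1.35 to 56.1 ± 1.25 and 64.97 ± 1.56. AFG3L2, a subunit of the protease that matures the MRPL32 protein, fell from 44.2 ± 1.29 to 35.4 ± 0.967 and 39.0 ± 1.13. MRPL32 itself was not called with H93, at 59.6 ± 0.777 and 62.5 ± 2.01.

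Of 8 nuclear regulators of mitochondrial genes, 4 (GABPA, PPRC1, YY1 and ESRRA) fell with H93 and with SAHA, and 1 (MYC) rose with H93 and none with SAHA. The falls were 50% of this short list, against 35.0% and 31.4% of all kept genes. GABPA, the DNA-binding ETS subunit of the factor GABP, fell from 14.3 ± 1.01 FPKM to 10.1 ± 0.841 with H93 and 11.5 ± 0.168 with SAHA. The coactivator PPRC1 fell from 23.1 ± 0.656 to 16.9 ± 0.302 and 19.5 ± 0.830, and YY1 from 40.2 ± 0.314 to 34.9 ± 0.404 and 37.5 ± 0.339. NRF1 was not called in either comparison, at 6.69 ± 0.154 with DMSO, 6.47 ± 0.342 with H93 and 6.73 ± 0.400 with SAHA. MYC rose with H93 from 27.6 ± 0.804 to 30.3 ± 0.693. PPARGC1A was not kept by the filter.

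Cytosolic ribosomal protein genes were set beside them. Of 80 kept cytosolic ribosomal protein genes, 41 fell and 8 rose with H93, with a median of −0.07, much as for the mitochondrial genes (39 and 10 of 77). Among all kept genes 35.0% fell and 34.9% rose with H93. With SAHA 10 of the 80 fell and 23 rose, with a median of 0.02, against 34 and 7 of the 77 mitochondrial genes. As shares the SAHA values of the cytosolic genes were 12.5% lower and 28.75% higher, against 31.4% and 27.4% of all kept genes. Between H93 and SAHA 50 of the 80 cytosolic genes were lower with H93 and 1 (RPL28) was higher, against 21 and 6 of the 77 mitochondrial genes. Among all kept genes 13.9% were lower and 17.6% higher with H93 than with SAHA. The difference between the cytosolic and the mitochondrial genes was not tested.

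**Figure D4:**
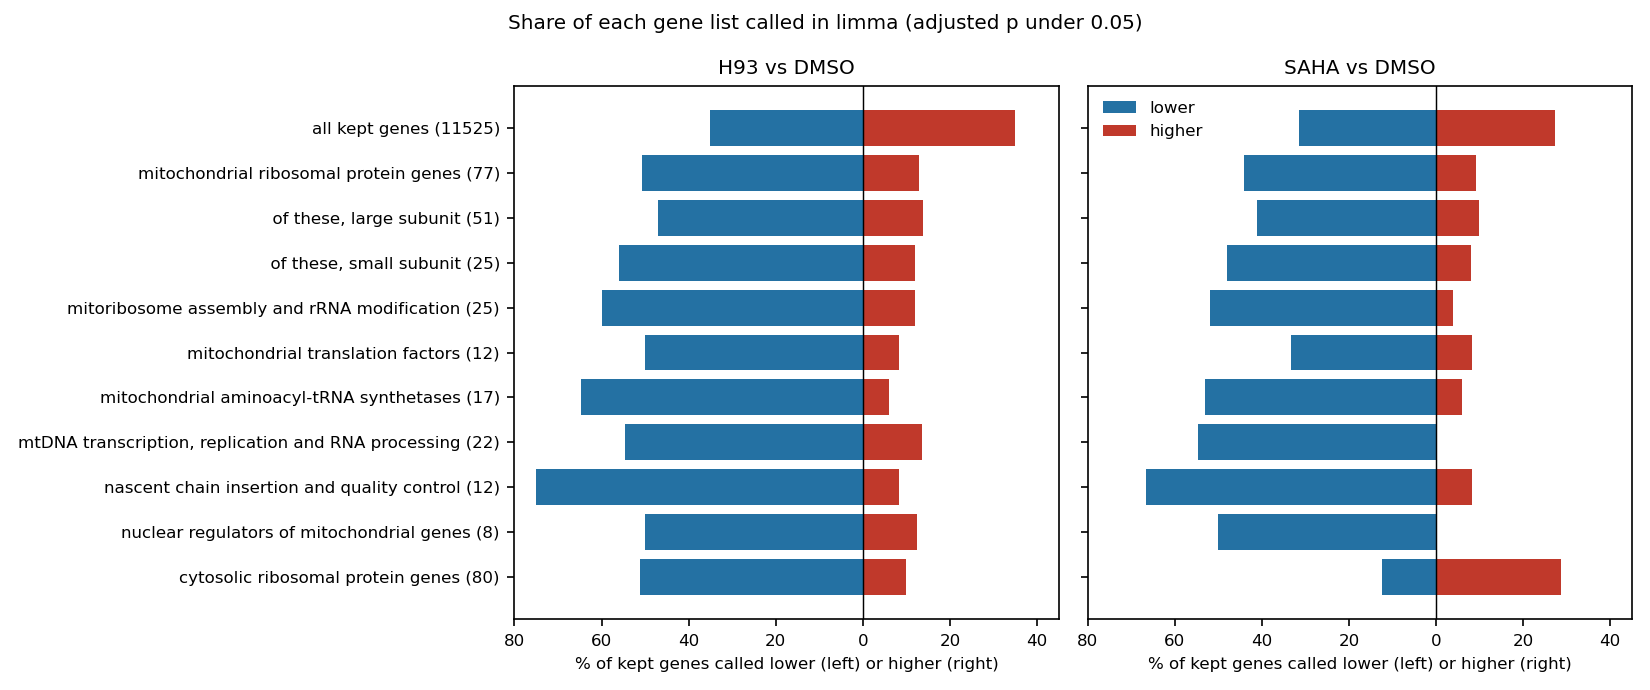
Share of the kept genes of each list (number in brackets) called lower (bars to the left) or higher (bars to the right) by limma at an adjusted p under 0.05, for H93 against DMSO (left panel) and SAHA against DMSO (right panel). The 77 mitochondrial ribosomal protein genes reach 50.6% and 44.2% lower, against 35.0% and 31.4% of all kept genes, and the cytosolic ribosomal protein genes have more rises than falls with SAHA.

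The 78 genes were spread over 21 chromosomes in GENCODE release 29. A protein-coding gene started on the opposite strand within 1000 bp of 17 of them, and in 13 of these arrangements both genes were kept, with MRPL46 and MRPS11 counted once from each side. With H93 the member and its neighbour both fell in 4 of the 13, they moved in opposite directions in 2, neither was called in 4 and 1 of the pair was called in the rest. Of the 13 neighbours 6 fell and 1 rose, where 35.0% of all kept genes fell and 34.9% rose. MRPL36 and NDUFS6, a complex I subunit whose start lies 34 bp away, both fell, NDUFS6 from 192 ± 11.9 to 147 ± 3.95 FPKM. The starts of MRPS34 and EME2 lie 52 bp apart, and both of these genes fell too. The members MRPL46 and MRPS11, 34 bp apart, were both not called. MRPL30 rose while MITD1, 21 bp away, fell from 13.2 ± 0.915 to 10.46 ± 0.150 (limma adjusted p = 0.00014). MRPL57 was not called, at 21.7 ± 0.475 and 22.5 ± 0.563, while SKA3, 43 bp away, fell from 11.2 ± 0.600 to 8.74 ± 0.303. In the other pair with opposite calls, MRPL18 fell and TCP1, 63 bp away, stood at 142 ± 2.39 with DMSO and 148 ± 0.658 with H93. The TCP1 call (limma adjusted p = 0.0477) was lost in 9 of the 19 alternatives. Among them were those without DMSO library 1 or 2, any H93 library or SAHA library 1. The MRPL18 call was lost in 4 of the 19, among them without DMSO library 1 or H93 library 1.

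Of the 78 genes 38 overlap another protein-coding gene, 13 on the same strand and 26 on the opposite strand. The library kit keeps the strand, but its use in the counting is not given in the sources used here, so reads of such pairs cannot be told apart with certainty. Among the genes shown by library, MRPL12 and MRPL38 each overlap, on the same strand, a gene with only a clone-based name that was not analysed here, and MRPL33 overlaps BABAM2 on the same strand. On the opposite strand MRPS7 overlaps GGA3 and MIF4GD, MRPS27 overlaps PTCD2, MRPL13 overlaps MTBP, MRPS12 overlaps SARS2 and MRPS2 overlaps C9orf116. No overlap was found for MRPS26, MRPS31, MRPS10, MRPL52, MRPL18, MRPL24 and MRPL27. In addition, 34 members have pseudogenes named after them in GENCODE, 75 in all, with 4 for MRPS31 and 8 for MRPS21, and near-identical copies can take up reads.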

How the data were processed

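RNA of 9 libraries, 3 per group, was extracted with TRIzol and made into libraries with a stranded mRNA kit, per the labels' protocols. The authors deposited FPKM per gene and library in a single table. Cufflinks, HISAT2, Trimmomatic 0.36 and GRCh38.p13 appear, without roles, in the submitters' processing notes, while annotation and strand use in counting were not given in the sources used here. Sample groups came from the sample titles, and columns were matched to samples by name.

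Values were analysed as log2(FPKM + 1), a scale that understates the change of low genes, for genes with FPKM of 1 or more in 3 or more of the 9 libraries. A group-means model of the 9 libraries was fitted with limma 3.58.1 (R 4.3.3), using its trended empirical Bayes variances. The residual degrees of freedom were 6 and the prior ones 6.05. P-values are two-sided and were adjusted by Benjamini-Hochberg over 11525 genes. An exact permutation test of 3 libraries against 3 cannot go below p = 0.1 and was not used. The procedure was run on simulated data with independent noise and few changed genes. With H93 69.8% of all genes were called here, so that run gives no error rate for these data.

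The members and lists were chosen with earlier results of these data known, and the YY1 letters searched and the set of genes at 10 to 100 FPKM were chosen after values were seen. Named genes were the 6 largest called rises and falls per comparison, the 4 highest and 4 lowest genes, paralogs and members with known roles, and up to 4 genes per list with the largest differences. MRPL32, TUFM, NGRN, GTPBP10, TRMT2B, VARS2, TRMT10C, YME1L1, NRF1, genes neighbouring or overlapping a member and 1 cytosolic gene were named after their values were seen. The same holds for NOA1, MTERF3, DDX28, TACO1, WARS2, YARS2, POLG and SSBP1. Positions came from GENCODE release 29 and promoters from RefSeq (GRCh38.p14). The 9 members without a RefSeq promoter entry were not searched. Same-numbered libraries did not deviate together (correlations of deviations from group means between −0.098 and 0.036 over 9 pairs), so numbers were not used as pairs, and no batch is given in the labels. No value column was left out. Alternatives were other pseudocounts, filters and scalings, robust moderation, a fit of just the 6 libraries compared, replicate numbers as a block, and leaving out each library. Tables and plots were made in Python 3.11.15 with pandas 2.3.3 and matplotlib 3.10.9.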

Additional observations from a re-analysis of the deposited data

How the results depend on the processing

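No difference named above changed sign where it was called. The median difference of the 77 genes moved from −0.116 to −0.0835 for H93 against DMSO with a pseudocount of 5, and from −0.0701 to −0.0441 for SAHA against DMSO after quantile normalization. For H93 against SAHA the number of genes called higher was 3, against 6, with no filter on low values, after median-ratio rescaling and after quantile normalization. Leaving out 1 library at a time gave 6 to 11 rises, 34 to 40 falls and medians of −0.116 to −0.0925 for H93 against DMSO, 5 to 9 rises, 25 to 34 falls and medians of −0.0811 to −0.0458 for SAHA against DMSO, and 3 to 5 rises, 18 to 22 falls and medians of −0.0430 to −0.0300 for H93 against SAHA. The lowest number of rises with H93 came without H93 library 1. The cause of these shifts was not tested. With the replicate number as a block, 9 rises and 39 falls were called for H93 against DMSO, 7 and 33 for SAHA against DMSO, and 5 and 21 for H93 against SAHA. No scaling moved the median of all genes by over 0.1. Absolute depth is unknown, so no counting error is given, and the levels of MRPL23 and MRPS24 are limited most by this.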
